A study of Mus musculus with 20 samples.

Results

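The proteasome is the multi-subunit protease that degrades proteins tagged with ubiquitin. Its genes were followed in ovarian antral follicles of mice that drank iodoacetic acid, a disinfection by-product of treated water. The genes were chosen by symbol: Psm, a letter from a to g and a number, among genes the submitters kept and leaving out pseudogene names. This gave 51 genes of the 39253 in the count table, of which 50 were among the 17810 genes with enough reads to test. They were 15 genes of the 20S core (8 of the alpha ring and 7 of the constitutive beta ring), 17 of the 19S cap (9 of the base and 8 of the lid), 4 tissue-specific or inducible beta subunits, 6 activators or inhibitors and 7 assembly chaperones. A further 2 genes, Psmc3ip and Psme3ip1, match by name only and are not subunits. The submitters' own pathway annotation puts 43 of the 51 among its 46 proteasome genes.

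CD-1 females drank iodoacetic acid at 10 or 500 mg/L, or plain water, for 35 days from the age of 40 days. Follicles of 220 to 400 µm, 30 to 40 from each mouse, were dissected in diestrus at 75 days and sequenced as 1 poly(A) RNA library per mouse. Experiment 1 held 5 controls (replicates 6 to 10) and 5 mice at 500 mg/L, and experiment 2, a month apart, held 5 controls (replicates 1 to 5) and 5 mice at 10 mg/L. The labels name no transgene, deletion or other agent in any group, and all 20 mice were of the same strain, sex and age. Dose and experiment go together, so that comparing the doses with each other, or with controls of the other experiment, cannot tell dose and experiment apart. Each dose is given against the controls of its own experiment and against all 10 controls. Comparisons that share control mice are not independent of each other.

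The core particle is a barrel of stacked rings: the outer alpha rings gate the entry, and the inner beta rings carry the cutting sites. The 19S cap recognises ubiquitin, removes it, unfolds the substrate with a ring of ATPases and threads it into the barrel. Interferon signals and blood cells bring in the alternative catalytic subunits Psmb8, Psmb9 and Psmb10, which take the place of Psmb5, Psmb6 and Psmb7 to make the immunoproteasome. When proteasomes fail, the transcription factor Nrf1, encoded by Nfe2l1, raises the genes of core and cap together through antioxidant response elements.

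Library totals ran from 39856800 to 67490200 estimated counts. All 8 granulosa, 6 theca and 10 oocyte marker genes had reads in every mouse, and so did all 15 leukocyte and 10 endothelial markers. In these whole follicles fewer cells of a type and less RNA per cell cannot be told apart. P-values measure the spread between these mice, and the labels do not say whether they shared litters. Replicate 2 at 10 mg/L stood apart: 3 small RNAs that normally lack a poly(A) tail were far higher there than in the other 19 mice. In CPM, which are counts scaled to the size of each library, Rnu1a1 reached 47.1 against at most 0.61, Rmrp 35.9 against at most 1.14, and Rpph1 30.8 against at most 0.865. Log2 changes printed for single proteasome genes at 10 mg/L are given with and without it. Those of cell markers and of genes without a Psm symbol are given with it only.

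Promoter sequences are shown first, with a search for the antioxidant response element, interferon-related motifs and the CCAAT box. RefSeq start sites of mouse GRCm38.p6 gave 250 upstream bases for 43 of the 51 genes. The core of the antioxidant response element, TGACNNNGC on either strand, lay in 5 of the 43 (11.6%) and in 11.5% of all 27025 genes with such a window. These were the catalytic core genes Psmb5 and Psmb6, the cap genes Psmc6 and Psmd12, and the chaperone Psmd9. They are printed 5′ to 3′ on the strand of the gene, with the matched letters in capitals, at chr14:54618024-54618052 (minus strand), chr11:70525338-70525356 (plus strand), chr14:45329587-45329615 (plus strand), chr11:107479278-107479299 (plus strand) and chr5:123228149-123228177 (plus strand).
Psmb5: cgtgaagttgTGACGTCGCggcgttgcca
Psmb6: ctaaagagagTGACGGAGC
Psmc6: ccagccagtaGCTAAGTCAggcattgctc
Psmd12: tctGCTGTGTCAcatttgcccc
Psmd9: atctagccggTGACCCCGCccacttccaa
The letters of Psmc6 and Psmd12 match on the opposite strand. The share of members with a match was close to the share of all genes.

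Psmb9 is read away from Tap1, the peptide transporter that feeds MHC class I, and the start sites of the neighbours lie 225 bases apart at chr17:34187331-34187555 (minus strand). The whole stretch between them is shown on the strand of Psmb9, because the levels of both genes are compared across mice further on. Capitals mark a CCAAT box, which reads ATTGG on this strand.
Psmb9 to Tap1: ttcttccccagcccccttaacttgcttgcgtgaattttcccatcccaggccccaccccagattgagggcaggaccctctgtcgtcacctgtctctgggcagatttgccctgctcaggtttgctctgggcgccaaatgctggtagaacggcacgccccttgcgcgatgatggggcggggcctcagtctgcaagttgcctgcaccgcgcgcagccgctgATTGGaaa
Psmb3 is the only member that differed between any sets of mice by edgeR, and its 250 upstream bases lie at chr11:97703184-97703433 (plus strand). Capitals mark 2 CCAAT boxes and 1 core of the interferon-stimulated response element (GAAA, any pair of bases, GAAA), which here reads on the opposite strand; the marked stretches do not overlap.
Psmb3: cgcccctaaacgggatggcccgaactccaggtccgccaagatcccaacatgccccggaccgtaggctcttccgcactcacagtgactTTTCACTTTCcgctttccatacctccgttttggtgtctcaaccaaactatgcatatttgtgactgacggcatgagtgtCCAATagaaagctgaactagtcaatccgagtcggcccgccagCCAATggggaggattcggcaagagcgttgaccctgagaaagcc
A CCAAT box on either strand stood in 16 of 43 member windows (37.2%) and in 37.5% of all genes. The interferon-stimulated core stood in 3 of 43 (6.98%; Psmb3, Psmd4 and Psmd9) against 3.46%. The gamma-activated site core, TTCNNNGAA, stood in 2 (4.65%; Psmb8 and Psmg1) against 8.13%. Both strands were searched for each motif, the interferon-related motifs can share bases with one another, and a match describes letters and not binding.

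Core and cap genes other than Psma8 were close to each other in level. Levels are compared between genes as mean CPM per kilobase of transcript (CPM per kb) over the 20 mice, with the median length of the coding transcripts in GENCODE vM21. The median was 106 CPM per kb in the 20S core and 73.5 in the 19S cap. Leaving out Psma8, the 31 core and cap genes lay between 44.7 CPM per kb for Psmd12, a lid scaffold, and 184 for Psmb6, the caspase-like subunit. Psma8, the alpha subunit of meiotic germ cells, lay far below its ring at 3.93 CPM per kb.

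Among the other classes only some members reached that range. The assembly chaperones, which build rings and base and leave the finished particle, had a median of 19.9 CPM per kb, from 11.7 for Psmd9 to 29.0 for Psmg1. Of the activators, Psme1 stood at 139 and Psme2 at 76.9 CPM per kb; they encode the subunits of PA28, a ring that opens the core without ubiquitin. Psme3, the nuclear relative of PA28, stood at 54.7, the large activator Psme4 at 20.5 and Psmf1, which can block the core, at 18.5 CPM per kb. Psme2b, a nearly identical copy of Psme2, was counted at 2.37 CPM per kb, and reads of the pair may have been shared between them.

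Immunoproteasome subunits had far lower transcript levels than the subunits they replace. Psmb10 stood at 12.5, Psmb8 at 8.42 and Psmb9 at 5.86 CPM per kb, against 121, 89.3 and 184 for their counterparts Psmb7, Psmb5 and Psmb6. Psmb11, the subunit of thymus epithelium, was near 0 with 0.0884 to 0.24 CPM and was not tested.

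**Figure D1:**
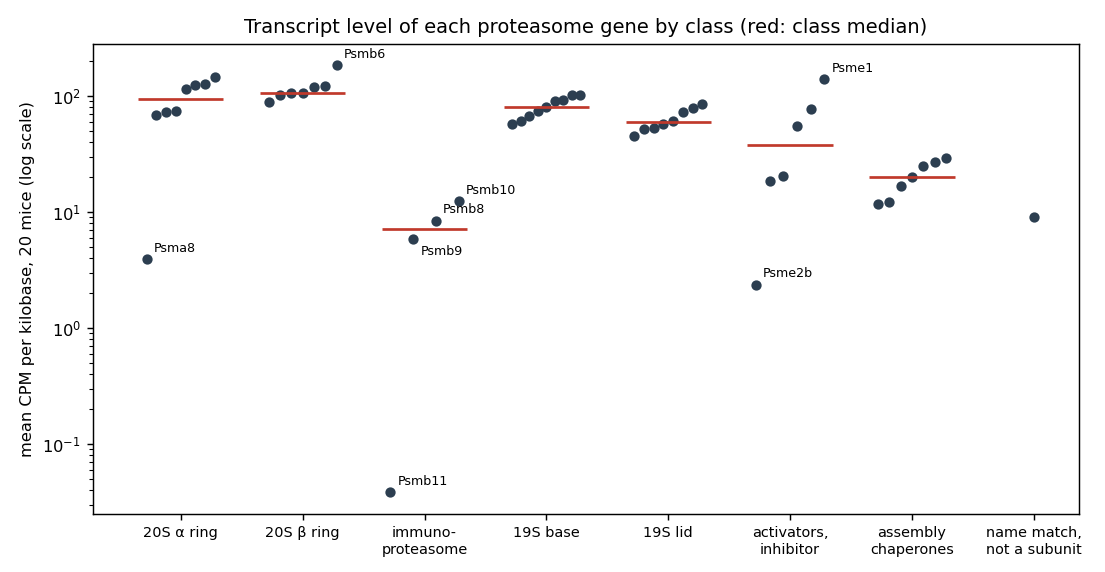
Each point is 1 gene, placed by its class on the x axis and by its mean CPM per kilobase over 20 mice on the logarithmic y axis; red lines are class medians. Core and cap genes other than Psma8 lie between 44.7 and 184, Psmb8, Psmb9 and Psmb10 lie between 5.86 and 12.5, and Psmb11 lies far below; Psme3ip1 has no length and is not drawn.

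Core and cap genes varied little between mice of a set. The SD of log2 CPM within the 4 sets of 5 mice had a median of 0.0956 over the 31 core and cap genes without Psma8. It was 0.131 over 3404 genes in the same range of mean level and 0.246 over all tested genes. By class the median was 0.108 in the core, 0.0885 in the cap, 0.115 in the chaperones and 0.262 over the 3 tested immunoproteasome subunits. Psmd13, a lid subunit, varied least at 0.054, and Psme2b most at 1.14.

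No proteasome gene changed at 10 mg/L by edgeR's quasi-likelihood test with Benjamini-Hochberg adjustment at 0.05. Against their own controls 0 of 50 members were called, as were 0% of all genes, and 3 members had an unadjusted p under 0.05 (6% of them, against 6.45% of all genes). Most values lay slightly below 0: 40 of 50 were lower, with a median of -0.063 on the log2 scale, where all genes had 0.00022. The median was -0.086 in the core (13 of 15 lower), -0.053 in the cap (14 of 17 lower) and -0.055 in the chaperones (7 of 7 lower). Against all 10 controls 0 of 50 were called (0.00561% of all genes), and 2 had an unadjusted p under 0.05 (4%, against 6.22%).

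The shift was smaller without 1 mouse. Replicate 2 at 10 mg/L had the lowest level of all 20 mice for 12 of 15 core genes and 5 of 17 cap genes, against 10.6% of all tested genes. Without it the median against own controls was -0.028 in the core, -0.017 in the cap and -0.032 in the chaperones, and 31 of 50 members were lower. Psmb2, a structural beta subunit, was highest of all 20 mice there, as were the cap genes Psmc4, Psmd4, Psmd3 and Psmd12. The RNAs without a poly(A) tail were high in this same library, and their part in these values was not tested. Markers of other cells also differed in value at 10 mg/L against own controls: all 10 endothelial markers were higher (median 0.33; summed level 388 to 564 CPM against 312 to 428), as were all 5 luteal markers (median 1.67; 652 to 3150.02 CPM against 389 to 1555), with 0 called by edgeR and none at 0 in any mouse. Their part in the values of proteasome genes was not tested.

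The trypsin-like subunit Psmb7 is the most extreme case in the core. In the second mouse at 10 mg/L its log2 deviation from the set mean was -0.61, against a mean of -0.27 over the core. Psmb7 measured 144, 151, 145, 147 and 145 CPM in the controls of experiment 2 and 154, 87.01, 148, 152 and 139 CPM at 10 mg/L. In experiment 1 Psmb7 measured 143, 134, 149, 133 and 147 CPM in the controls and 134, 139.7, 143, 137 and 143 CPM at 500 mg/L. The second mouse at 10 mg/L lay far below all others, and the other 4 fell on both sides of the controls. The change was -0.11 ± 0.10 (log2 ± SE, edgeR adjusted p = 0.895) at 10 mg/L and -0.017 ± 0.10 at 500 mg/L, each against own controls. Without that mouse the change at 10 mg/L was 0.024 ± 0.048.

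Psmb2 turned the other way in the same library. Psmb2 measured 84.5, 90.6, 94.7, 84.9 and 91.4 CPM in the controls of experiment 2 and 83.6, 107, 91.2, 89.9 and 84.1 CPM at 10 mg/L. At 10 mg/L the second mouse was above all controls, 2 mice lay just below them and the others within their range. In experiment 1 Psmb2 measured 94.9, 85.2, 97.6, 94.9 and 92.7 CPM in the controls and 91.3, 89.5, 95.4, 86.9 and 91.1 CPM at 500 mg/L. The sets of experiment 1 overlapped, and the values were 0.033 ± 0.062 at 10 (-0.028 ± 0.052 without the second mouse, so the sign turned) and -0.035 ± 0.062 at 500 mg/L.

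Psma7 and Psma2 encode subunits of the alpha ring, the former with the smallest p of its ring at 10 mg/L against all controls and the latter with the highest CPM. Psma7 measured 145, 154, 155, 161 and 154 CPM in the controls of experiment 2 and 159.7, 102, 147, 156 and 136 CPM at 10 mg/L. In experiment 1 Psma7 measured 168, 142, 173, 156 and 167 CPM in the controls and 147, 153, 161, 150.3 and 151 CPM at 500 mg/L. At 10 mg/L the second and the fifth mouse lay below all controls of both experiments. Against all controls the value of Psma7 was -0.17 ± 0.076 (log2 ± SE, edgeR adjusted p = 0.784), and -0.069 ± 0.056 without the second mouse. Psma2 measured 193, 186, 215, 189 and 186 CPM in the controls of experiment 2 and 199, 163, 194, 189.9 and 181 CPM at 10 mg/L. In experiment 1 Psma2 measured 217, 169.6, 229.8, 221 and 263 CPM in the controls and 229.7, 210.1, 198, 189 and 195 CPM at 500 mg/L. All 4 sets overlapped for Psma2, and its value was -0.064 ± 0.090 at 10 (-0.015 ± 0.094 without the second mouse) and -0.11 ± 0.090 at 500 mg/L against own controls.

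Psmb6, the caspase-like subunit, and Psmb1, a structural one with the highest CPM of the beta ring, followed the same order of mice in part. Psmb6 measured 136, 148, 141, 155 and 139 CPM in the controls of experiment 2 and 153, 107, 146, 148 and 128 CPM at 10 mg/L. In experiment 1 Psmb6 measured 159.6, 146, 166, 157 and 149 CPM in the controls and 137, 145, 155, 158 and 159 CPM at 500 mg/L. The second mouse at 10 mg/L was again lowest, the fifth also lay below all controls, and the other 3 lay within their range. Against all controls Psmb6 read -0.14 ± 0.071 (log2 ± SE, edgeR adjusted p = 0.817) at 10 mg/L, and -0.055 ± 0.062 without the second mouse. Psmb1 measured 184, 192, 179.8, 182 and 177 CPM in the controls of experiment 2 and 183, 143, 166, 180.4 and 186 CPM at 10 mg/L. In experiment 1 Psmb1 measured 177, 158, 179, 165 and 198 CPM in the controls and 172, 189.6, 184, 176 and 192 CPM at 500 mg/L. Both doses overlapped their controls for Psmb1, at -0.090 ± 0.070 for 10 mg/L (-0.026 ± 0.062 without the second mouse) and 0.059 ± 0.070 for 500 mg/L.

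At 500 mg/L against own controls no member was called either (0 of 50, and 0% of all genes). Of the 50, 1 had an unadjusted p under 0.05 (2%, against 5.19% of all genes). The median was -0.020 over the members and 0.0018 over all genes, with -0.036 in the core (13 of 15 lower) and 0.0073 in the cap (7 of 17 lower). Changes of the 31 core and cap genes other than Psma8 ran from -0.12 for Psmb4 to 0.12 for Psmc6, with a median SE of 0.064. The 95% intervals of these 31 genes together spanned 0.821-fold to 1.203-fold. At 10 mg/L, with all 5 mice, they spanned 0.79-fold to 1.14-fold.

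Against all 10 controls, where experiment is mixed in, 0 of 50 members were called at 500 mg/L (0.0112% of all genes). An unadjusted p under 0.05 was seen for 6 members (12%, against 8.69% of all genes). Fitting both doses together, each within its experiment, called 0 of 50 (0.0112% of all genes). That fit put 5 members under 0.05 unadjusted (10%, against 6.77% of all genes). The median was -0.042 with 37 of 50 lower, and -0.024 with 33 of 50 lower without the second mouse at 10 mg/L. The difference between the effects of the doses was called for 0 of 50 (0% of all genes), with 1 under 0.05 unadjusted (2%, against 5.41%). In the authors' deposited table, which pools the controls, 0 of 51 members pass an adjusted p of 0.05 at 10 mg/L (0.611% of its genes) and 0 of 51 at 500 mg/L (1.26%).

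**Figure D2:**
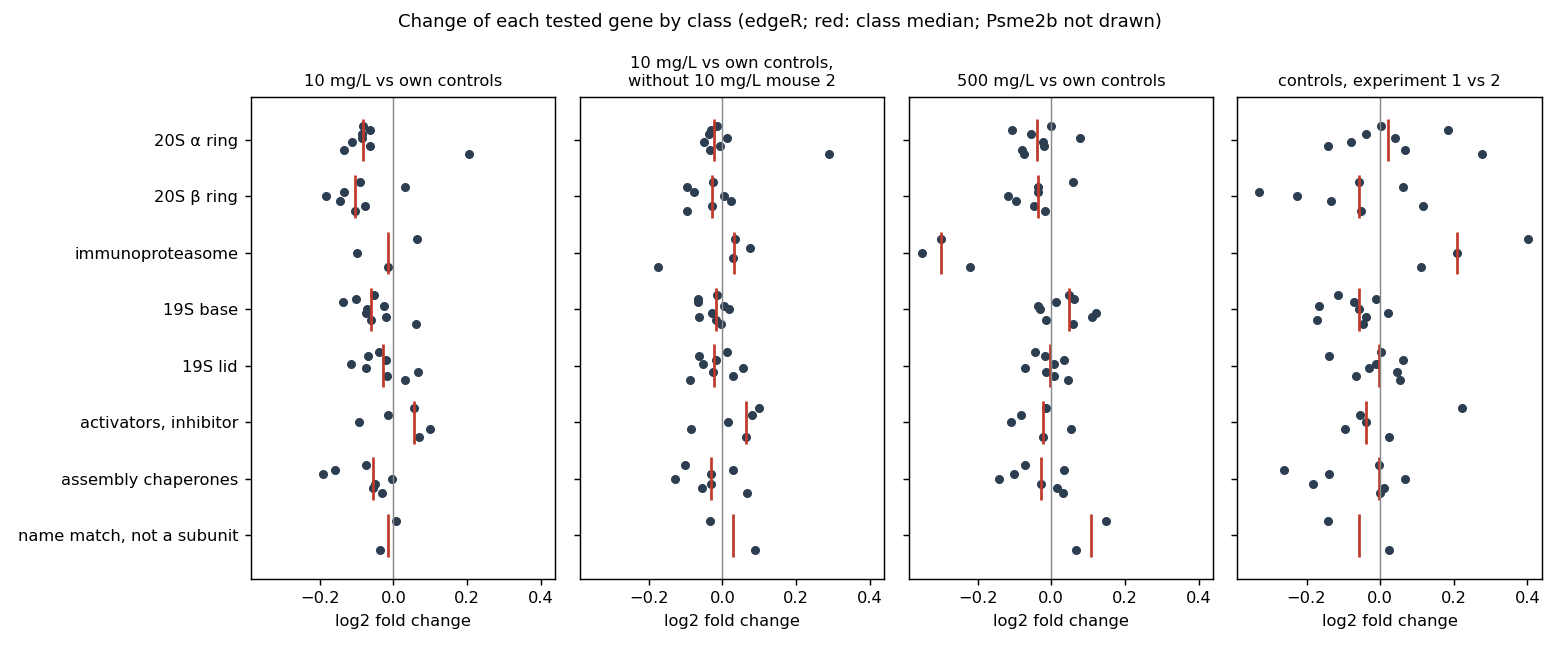
Each point is 1 tested gene, placed by its class on the y axis and its edgeR log2 fold change on the x axis, in 4 comparisons; red lines are class medians of the points drawn and Psme2b is left out. The core lies slightly left of 0 at 10 mg/L, less so without mouse 2, and the 3 immunoproteasome subunits lie left of 0 at 500 mg/L and right of 0 between the control sets.

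Among the catalytic subunits, Psmb5, which cuts after bulky hydrophobic residues, was low in value at both doses. Psmb5 measured 71.4, 77.7, 75.1, 73.5 and 72.5 CPM in the controls of experiment 2 and 74.4, 54.6, 69.5, 71.3 and 64.7 CPM at 10 mg/L. In experiment 1 Psmb5 measured 70.3, 68.3, 67.4, 67.5 and 63.8 CPM in the controls and 64.02, 59.96, 61.000, 63.7 and 66.9 CPM at 500 mg/L. At 10 mg/L 4 of 5 mice lay below every control of their experiment, the second farthest, and at 500 mg/L 3 of 5 did. Psmb5 read -0.15 ± 0.065 (log2 ± SE, edgeR adjusted p = 0.763) at 10 mg/L and -0.10 ± 0.065 (log2 ± SE, edgeR adjusted p = 0.963) at 500 mg/L against own controls. Without the second mouse the value at 10 mg/L was -0.076 ± 0.052.

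Psmb4, which closes the assembly of the beta ring, had the smallest p of its ring at 500 mg/L against all controls. Psmb4 measured 159.6, 164, 167, 151 and 157 CPM in the controls of experiment 2 and 149.8, 107, 153, 151 and 142 CPM at 10 mg/L. In experiment 1 Psmb4 measured 141, 124, 149, 124 and 144 CPM in the controls and 126, 127, 122, 126 and 128 CPM at 500 mg/L. All 5 mice at 500 mg/L lay below every control of experiment 2 but overlapped those of experiment 1. Its change at 500 mg/L was -0.23 ± 0.081 (log2 ± SE, edgeR adjusted p = 0.395) against all controls and -0.12 ± 0.079 (log2 ± SE, edgeR adjusted p = 0.963) against its own.

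Psmc6, an ATPase of the base, was the only member whose mice at 500 mg/L did not overlap their own controls (1 of 50 members, against 0.932% of all genes). Psmc6 measured 123, 125, 122, 134 and 128 CPM in the controls of experiment 2 and 131, 102, 122, 123 and 122 CPM at 10 mg/L. In experiment 1 Psmc6 measured 124, 116, 133, 135 and 133 CPM in the controls and 135, 138, 141, 137 and 146 CPM at 500 mg/L. Every mouse at 500 mg/L lay above all mice of the other 3 sets, by a narrow margin over the highest controls. The change against own controls was 0.12 ± 0.060 (log2 ± SE, edgeR adjusted p = 0.96). No member at 10 mg/L was free of overlap with its own controls, against 1.04% of all genes.

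Between the doses 0 of 50 members were called by edgeR (0.0112% of all genes). An unadjusted p under 0.05 was seen for 7 members (14%, against 10% of all genes). Psmc6 was 0.22 ± 0.059 (log2 ± SE, edgeR adjusted p = 0.233) at 500 relative to 10 mg/L. DESeq2 called it alone of the members, at an adjusted p of 0.0464 (1.03% of the 11932 genes to which DESeq2 gave an adjusted p). The authors' deposited table likewise passes 1 of 51 members between the doses, Psmc6 at a fold of 1.16 and an adjusted p of 0.0344 (1.59% of its genes). Without the second mouse at 10 mg/L the edgeR value was 0.16 ± 0.053 (adjusted p = 0.367), and dose and experiment cannot be told apart here.

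The other cap genes lay closer to 0 at 500 mg/L. Psmd2, the large scaffold of the base with the highest CPM of all members, overlapped its own controls at both doses. Psmd2 measured 313, 331, 313, 335 and 321 CPM in the controls of experiment 2 and 322, 286, 312, 325 and 303 CPM at 10 mg/L. In experiment 1 Psmd2 measured 301, 272, 294, 285 and 281 CPM in the controls and 274, 274, 284, 298 and 289 CPM at 500 mg/L. Its values were -0.060 ± 0.049 at 10 (-0.027 ± 0.050 without the second mouse) and -0.015 ± 0.049 at 500 mg/L, and all 5 controls of experiment 1 lay below all 5 of experiment 2. Psmd4, the ubiquitin receptor of the base, had the smallest p of the base at 10 mg/L against all controls, 0.083 ± 0.045 (log2 ± SE, edgeR adjusted p = 0.819), or 0.041 ± 0.041 without the second mouse. Psmd4 measured 119, 124, 122, 120.01 and 124 CPM in the controls of experiment 2 and 118, 143, 125, 124 and 125 CPM at 10 mg/L. In experiment 1 Psmd4 measured 121, 109, 124, 117 and 119 CPM in the controls and 117, 125, 130.4, 121 and 120.3 CPM at 500 mg/L. The second mouse at 10 mg/L lay above all others for Psmd4, and the other 4 lay near the controls.

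In the lid, Psmd3, Psmd8, Psmd11 and Psmd6 are structural subunits. Psmd3 measured 172, 170.02, 175, 173 and 169 CPM in the controls of experiment 2 and 167, 181, 165, 169 and 154 CPM at 10 mg/L. In experiment 1 Psmd3 measured 180.3, 161, 181, 173 and 165 CPM in the controls and 156, 155, 176, 173 and 174 CPM at 500 mg/L. Psmd3, the lid gene with the highest CPM, overlapped its controls in both experiments, at -0.038 ± 0.053 for 10 mg/L (-0.064 ± 0.054 without the second mouse) and -0.045 ± 0.053 for 500 mg/L. Psmd8 measured 103, 125, 117, 112 and 116 CPM in the controls of experiment 2 and 106, 88.4, 114, 117 and 104 CPM at 10 mg/L. In experiment 1 Psmd8 measured 113, 106, 119.95, 115 and 115 CPM in the controls and 116, 114, 116, 115 and 111 CPM at 500 mg/L. The second mouse at 10 mg/L was lowest for Psmd8, which had the smallest p of the lid at that dose against all controls, -0.11 ± 0.056 (log2 ± SE, edgeR adjusted p = 0.807), or -0.049 ± 0.049 without that mouse. Psmd11 measured 124, 125, 122, 124 and 123 CPM in the controls of experiment 2 and 123, 124, 120.4, 116 and 105 CPM at 10 mg/L. In experiment 1 Psmd11 measured 122, 113, 127, 118 and 126 CPM in the controls and 117, 117, 113, 122 and 109.6 CPM at 500 mg/L. Psmd11 had the smallest p of the lid at 500 mg/L against all controls, -0.086 ± 0.043 (log2 ± SE, edgeR adjusted p = 0.588), and read -0.071 ± 0.050 against its own, with overlap. Psmd6 measured 74.2, 87.3, 89.7, 91.7 and 83.4 CPM in the controls of experiment 2 and 91.2, 72.7, 83.7, 85.6 and 73.3 CPM at 10 mg/L. In experiment 1 Psmd6 measured 75.4, 71.1, 87.4, 74.2 and 79.1 CPM in the controls and 75.03, 75.1, 79.1, 79.2 and 74.02 CPM at 500 mg/L. Psmd6 overlapped in all 4 sets and differed most of the lid between the control sets, at -0.14 ± 0.072 (log2 ± SE, edgeR adjusted p = 0.556). Psmd14, the deubiquitinase that frees the substrate from its tag, read 0.031 ± 0.075 at 10 (0.056 ± 0.083 without the second mouse) and 0.046 ± 0.075 at 500 mg/L.

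Among the activators, Psme4, which caps the core in place of 19S, had the smallest p of all members at 10 mg/L against all controls, 0.15 ± 0.047 (log2 ± SE, edgeR adjusted p = 0.664), or 0.15 ± 0.051 without the second mouse. Psme4 measured 141, 129.6, 125, 146 and 127 CPM in the controls of experiment 2 and 144, 145, 133, 149 and 146 CPM at 10 mg/L. In experiment 1 Psme4 measured 124, 131, 121, 125 and 125 CPM in the controls and 136, 123, 128, 128 and 135 CPM at 500 mg/L. Against its own controls, with which it overlapped, Psme4 read 0.10 ± 0.051, and 0.10 ± 0.054 without that mouse. Psme3 measured 144, 155, 151, 169 and 146 CPM in the controls of experiment 2 and 164, 141, 141, 142 and 128 CPM at 10 mg/L. In experiment 1 Psme3 measured 145, 143, 150.4, 154 and 151 CPM in the controls and 135, 134, 143, 144 and 134 CPM at 500 mg/L. At 500 mg/L 4 of 5 mice had less Psme3 than every control of their experiment, 1 of them by a small margin; the change was -0.11 ± 0.059 (log2 ± SE, edgeR adjusted p = 0.961). Psme2 measured 68.1, 77.04, 68.5, 72.2 and 63.9 CPM in the controls of experiment 2 and 73.2, 63.9, 69.7, 74.04 and 65.1 CPM at 10 mg/L. In experiment 1 Psme2 measured 62.3, 66.8, 77.04, 66.2 and 64.3 CPM in the controls and 65.04, 64.6, 58.4, 64.1 and 65.8 CPM at 500 mg/L. Psme2 overlapped in all sets, at -0.016 ± 0.065 for 10 mg/L (0.017 ± 0.070 without the second mouse, so the sign turned) and -0.082 ± 0.065 for 500 mg/L. Psmf1 read 0.068 ± 0.075 at 10 mg/L (0.064 ± 0.080 without that mouse) and -0.021 ± 0.075 at 500 mg/L.

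Of the chaperones, Psmg3, which helps pair the alpha subunits, had the smallest p at 10 mg/L against all controls, -0.12 ± 0.083 (log2 ± SE, edgeR adjusted p = 0.86), or -0.061 ± 0.085 without the second mouse. Psmg3 measured 15.8, 19.99, 18.4, 16.9 and 17.5 CPM in the controls of experiment 2 and 17.5, 13.01, 16.8, 15.5 and 14.8 CPM at 10 mg/L. In experiment 1 Psmg3 measured 14.9, 15.7, 17.5, 16.9 and 15.6 CPM in the controls and 15.1, 15.001, 17.2, 14.7 and 13.02 CPM at 500 mg/L. Psmg3 overlapped its own controls at both doses, at -0.19 ± 0.092 for 10 mg/L (-0.13 ± 0.091 without that mouse) and -0.10 ± 0.092 for 500 mg/L. Psmd5, a chaperone of the base with the highest CPM of the class, separated the control sets. Psmd5 measured 56.6, 58.8, 55.8, 60.9 and 55.8 CPM in the controls of experiment 2 and 61.5, 53.7, 55.3, 56.2 and 51.5 CPM at 10 mg/L. In experiment 1 Psmd5 measured 52.7, 48.7, 50.9, 50.7 and 50.7 CPM in the controls and 50.9, 48.4, 48.02, 52.8 and 48.5 CPM at 500 mg/L. All 5 controls of experiment 1 lay below all 5 of experiment 2, while both doses overlapped their own controls, at -0.049 ± 0.051 for 10 mg/L (-0.031 ± 0.056 without the second mouse) and -0.029 ± 0.051 for 500 mg/L. Of the genes matching by name only, Psmc3ip, a factor of meiotic recombination, ran from 7.83 to 16.1 CPM over all mice and Psme3ip1 from 45.6 to 58.3.

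The 2 sets of untreated mice gave edgeR's only call among the members. Of the 50 members, 1 was called by edgeR (0.157% of all genes) and 9 had an unadjusted p under 0.05 (18%, against 9.78% of all genes). In 7 of 50 the 5 controls of one experiment lay entirely above or below those of the other (14%, against 3.1% of all genes). Psme1 was higher in experiment 1 in that way, and Psmb3, Psmb4, Psmb5, Psmd2, Psmg2 and Psmd5 were lower. DESeq2 called 4 of them, Psme1, Psmd2, Psmb3 and Psmd5 (1.31% of the 15378 genes to which it gave an adjusted p). Members varied less within sets than all genes (median SD of log2 CPM 0.101 against 0.246) and varied together. These shares were not set beside those of genes at a similar level.

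Psmb3, a structural beta subunit, was the member edgeR called. Psmb3 measured 83.1, 95.96, 95.1, 96.6 and 95.2 CPM in the controls of experiment 2 and 82.6, 77.3, 96.04, 88.2 and 80.7 CPM at 10 mg/L. In experiment 1 Psmb3 measured 81.3, 68.1, 76.6, 71.03 and 74.02 CPM in the controls and 72.3, 76.6, 72.5, 70.03 and 70.3 CPM at 500 mg/L. Every control of experiment 1 lay below every control of experiment 2, and both doses overlapped their own controls. Psmb3 fell by 0.33 ± 0.063 (log2 ± SE, edgeR adjusted p = 0.0393) from experiment 2 to experiment 1, a fold of 0.796. The call is near its threshold: with 1 mouse of any group left out it passed in 5 of 20 fits, with adjusted p from 0.0269 to 0.131 and changes from -0.37 to -0.30. It also missed with no filter on low counts, at 0.0841, and with only the control mice in the fit, at 0.111. At 500 mg/L Psmb3 read -0.21 ± 0.083 against all controls and -0.036 ± 0.063 against its own.

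Psme1, a subunit of PA28 that interferon raises, went the other way. Psme1 measured 87.8, 93.4, 93.7, 91.4 and 87.9 CPM in the controls of experiment 2 and 85.2, 89.3, 100.1, 101 and 96.2 CPM at 10 mg/L. In experiment 1 Psme1 measured 113, 104, 106, 103 and 103 CPM in the controls and 94.4, 109.8, 107, 98.7 and 114 CPM at 500 mg/L. All 5 controls of experiment 1 exceeded all 5 of experiment 2. The difference was 0.22 ± 0.059 (log2 ± SE, edgeR adjusted p = 0.173), and both doses overlapped their own controls, at 0.056 ± 0.059 for 10 mg/L (0.080 ± 0.060 without the second mouse) and -0.014 ± 0.058 for 500 mg/L. Its partner in the same ring, Psme2, read -0.055 ± 0.065 between the control sets.

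Psma6, of the alpha ring, was lower in experiment 1 in value. Psma6 measured 119, 128, 117, 132 and 122 CPM in the controls of experiment 2 and 134, 101, 119, 125 and 114 CPM at 10 mg/L. In experiment 1 Psma6 measured 108, 108, 116, 118 and 109.7 CPM in the controls and 104, 113, 110.2, 111 and 115 CPM at 500 mg/L. The control sets overlapped by 1 mouse, and the difference was -0.14 ± 0.062 (log2 ± SE, edgeR adjusted p = 0.458). Against all controls Psma6 had the smallest p of its ring at 500 mg/L, -0.092 ± 0.060 (log2 ± SE, edgeR adjusted p = 0.695), and against its own it read -0.020 ± 0.062.

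Psma8, the germ-cell subunit, is the alpha gene whose value was higher at 10 mg/L. Psma8 measured 6.52, 5.39, 4.56, 4.33 and 2.84 CPM in the controls of experiment 2 and 5.53, 4.25, 6.13, 4.61 and 6.76 CPM at 10 mg/L. In experiment 1 Psma8 measured 5.36, 5.79, 5.67, 5.54 and 6.25 CPM in the controls and 4.11, 7.39, 5.55, 6.27 and 3.801 CPM at 500 mg/L. The sets overlapped in both experiments, at 0.21 ± 0.20 for 10 mg/L (0.29 ± 0.21 without the second mouse) and -0.075 ± 0.20 for 500 mg/L, and the control sets differed by 0.28 ± 0.20. The 10 oocyte markers summed to 375 to 581 CPM in the controls of experiment 2, 295 to 591 at 10 mg/L, 304 to 478 in the controls of experiment 1 and 335 to 658 at 500 mg/L, with none at 0 in any mouse. Of these markers 8 of 10 were lower in value at 10 mg/L than in own controls (median -0.11), all 10 higher at 500 mg/L (median 0.27) and 9 of 10 lower in experiment 1 than in experiment 2 controls (median -0.26), with 0 called by edgeR. The SE of Psma8 was 0.20 in each of these comparisons, which share control mice. The part of oocytes in the values of Psma8 was not tested.

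**Figure D3:**
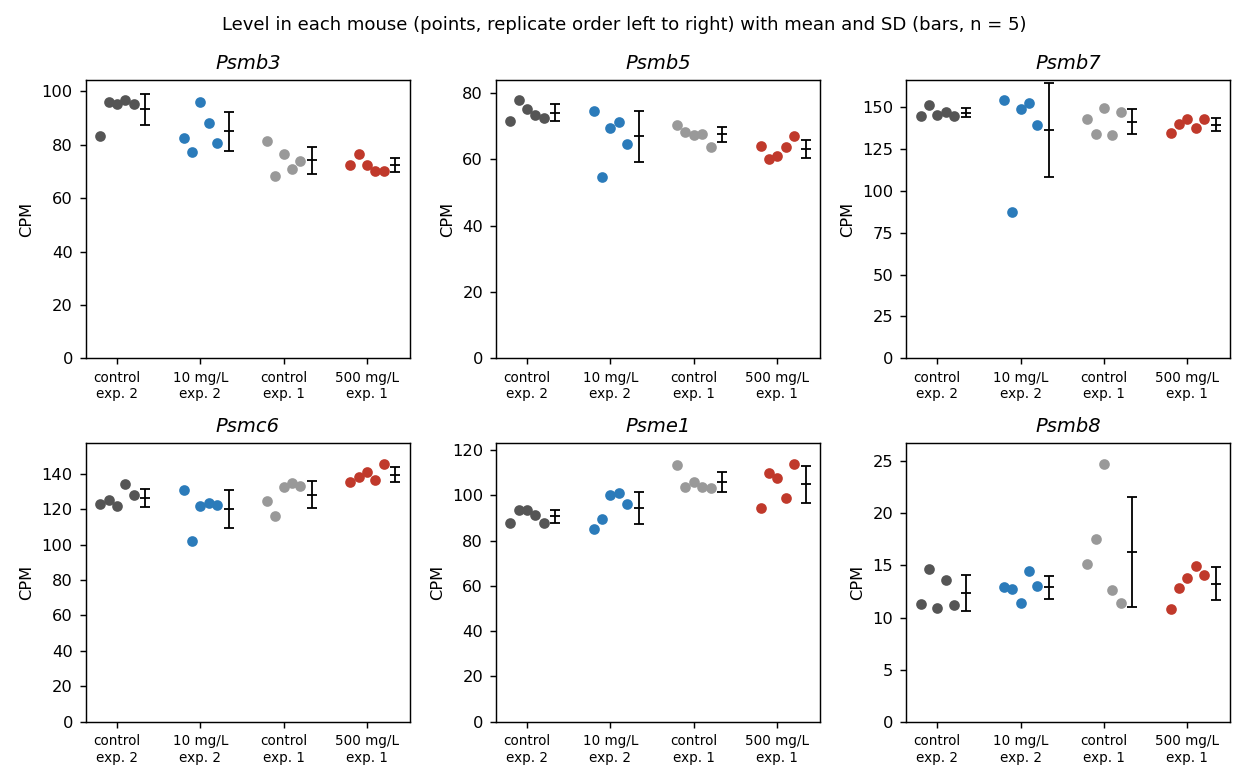
Points are single mice in replicate order, placed by set on the x axis and by CPM on the y axis, which starts at 0; bars are mean and SD of 5 mice. Psmb3 and Psme1 separate the control sets, Psmc6 is highest at 500 mg/L, mouse 2 at 10 mg/L is low for Psmb5 and Psmb7, and Psmb8 is highest in 1 control of experiment 1.

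The 3 immunoproteasome subunits were lower in value at 500 mg/L than in their own controls, and none was called by edgeR. Psmb8 measured 11.3, 14.7, 10.9, 13.6 and 11.2 CPM in the controls of experiment 2 and 12.9, 12.7, 11.4, 14.4 and 13.1 CPM at 10 mg/L. In experiment 1 Psmb8 measured 15.1, 17.5, 24.8, 12.7 and 11.4 CPM in the controls and 10.8, 12.8, 13.8, 14.9 and 14.04 CPM at 500 mg/L. Psmb8, the counterpart of Psmb5, was highest in control 8, and 3 controls of experiment 1 lay above all mice at 500 mg/L while the other 2 lay inside their range. The change at 500 mg/L was -0.30 ± 0.16 (log2 ± SE, edgeR adjusted p = 0.961).

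Psmb9 replaces Psmb6 and Psmb10 replaces Psmb7. Psmb9 measured 8.84, 9.64, 6.18, 8.81 and 6.23 CPM in the controls of experiment 2 and 9.897, 4.68, 6.18, 8.396 and 7.89 CPM at 10 mg/L. In experiment 1 Psmb9 measured 11.1, 7.16, 12.6, 7.37 and 7.55 CPM in the controls and 6.39, 8.01, 6.64, 8.05 and 6.87 CPM at 500 mg/L. Psmb9 was high in 2 controls of experiment 1, and the others overlapped the mice at 500 mg/L. Psmb10 measured 15.2, 17.4, 16.2, 17.2 and 15.8 CPM in the controls of experiment 2 and 16.5, 14.4, 16.1, 17.9 and 15.97 CPM at 10 mg/L. In experiment 1 Psmb10 measured 15.3, 19.8, 18.4, 19.97 and 14.9 CPM in the controls and 14.1, 15.4, 14.04, 16.9 and 15.3 CPM at 500 mg/L. Psmb10 was high in 3 controls of experiment 1, above all mice at 500 mg/L, and the other 2 lay inside their range. At 500 mg/L Psmb9 read -0.35 ± 0.20 (log2 ± SE, edgeR adjusted p = 0.961) and Psmb10 -0.22 ± 0.091 (log2 ± SE, edgeR adjusted p = 0.954).

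At 10 mg/L the subunits lay near their controls, at 0.064 ± 0.16 for Psmb8, -0.10 ± 0.20 for Psmb9 and -0.014 ± 0.091 for Psmb10. Without the second mouse, which had the lowest Psmb9 of all 20, they read 0.074 ± 0.18, 0.034 ± 0.20 and 0.029 ± 0.10, so the signs of Psmb9 and Psmb10 turned. Between the control sets all 3 were higher in experiment 1, at 0.40 ± 0.16, 0.21 ± 0.20 and 0.11 ± 0.091, with the smallest adjusted p 0.417 by edgeR. Without control 8 the median of the class at 500 mg/L against own controls moved from -0.30 to -0.21, and between the control sets from 0.21 to 0.094.

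Leukocyte markers differed in value in the direction of these subunits at 500 mg/L and between the control sets, but not at 10 mg/L with all mice. All 15 were lower in value at 500 mg/L than in own controls (median -0.60, 0 called by edgeR) and all 15 higher in experiment 1 than in experiment 2 controls (median 0.51, 0 called). At 10 mg/L 13 of 15 were higher than in own controls (median 0.23, 0 called), where 2 of the 3 subunits were lower. Their summed level was 127 to 192 CPM in the controls of experiment 2, 95.9 to 263 at 10 mg/L, 151 to 375 in the controls of experiment 1 and 97.2 to 224 at 500 mg/L, and none of the 15 was at 0 in any mouse. The part of leukocytes in the immunoproteasome values was not tested.

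Genes of interferon response and antigen presentation were also lower in value at 500 mg/L and higher in experiment 1 controls. Of 12 genes of MHC class I processing, 10 were lower at 500 mg/L than in own controls (median -0.24) and 12 of 12 higher in experiment 1 than in experiment 2 controls (median 0.27), with 0 called by edgeR in each. Tap1 read -0.32 ± 0.13 and 0.28 ± 0.13, B2m, the light chain of class I, -0.32 ± 0.18 and 0.53 ± 0.18, and H2-K1, a heavy chain, -0.45 ± 0.22 at 500 mg/L. Of 16 interferon response genes 14 were lower at 500 mg/L (median -0.15) and 13 higher in experiment 1 controls (median 0.17), 0 called. At 10 mg/L against own controls 8 of the 12 (median 0.063) and 10 of the 16 (median 0.060) were higher, 0 called. Between the doses 1 of the 16 was called (0.0112% of all genes), Ifi27 at -0.53 ± 0.09 (log2 ± SE, edgeR adjusted p = 0.0457). Dose and experiment cannot be told apart there, and the call depends on the processing. With upper-quartile scaling, no filter on low counts, or any single exposed mouse left out, edgeR called no gene between the doses. With RLE scaling edgeR called 2 genes, and DESeq2 called 123.

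The mix of alternative to standard subunits was described by the ratio of their CPM. Psmb8 per 100 Psmb5 was 16.6 ± 1.97 (SD, n = 5) in the controls of experiment 2, 19.5 ± 2.73 at 10 mg/L, 24.1 ± 7.66 in the controls of experiment 1 and 21.04 ± 2.53 at 500 mg/L. Psmb9 per 100 Psmb6 was 5.51 ± 1.04, 5.39 ± 1.02, 5.84 ± 1.35 and 4.78 ± 0.528 in the same order. Psmb10 per 100 Psmb7 was 11.2 ± 0.479, 12.3 ± 2.44, 12.6 ± 2.25 and 10.9 ± 0.924. The ranges of exposed mice and own controls overlapped for each ratio, and 2 of the highest values at 10 mg/L belonged to the second mouse: 23.3 Psmb8 per 100 Psmb5 and 16.6 Psmb10 per 100 Psmb7, where Psmb5 and Psmb7 were low. Transcript lengths differ between partners, so these are ratios of reads and not of subunits.

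Within a set, most core and cap genes varied together from mouse to mouse. Each gene's log2 CPM was taken as its deviation from the mean of its set of 5, and Pearson's r of these deviations was computed over the 20 mice. The median r was 0.56 over 105 pairs of core genes, 0.42 over 136 pairs of cap genes, 0.39 over 255 pairs of a core and a cap gene and 0.32 over all 1225 pairs of members. Over all pairs of tested genes it was -0.004, and 0.0315 over pairs of genes at the level of core and cap. The points share library size and RNA quality, and pairs share genes, so this is a description.

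Without the second mouse at 10 mg/L the median was 0.38 within the core, 0.54 within the cap and 0.45 between them, so the order of core and cap turned. Control 7 was also low in both, by 0.12 in the core and 0.11 in the cap on the log2 scale, against 0.27 and 0.067 in the second mouse at 10 mg/L. Core and immunoproteasome genes had a median r of 0.25 with all mice and 0.21 without that mouse. With all 20 mice, Psmb2 and Psmd4 had the lowest median r with the core genes, at -0.42 and -0.30. Both genes were highest of all mice in the second mouse at 10 mg/L, where most core genes were lowest. Their median r without that mouse is not given.

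**Figure D4:**
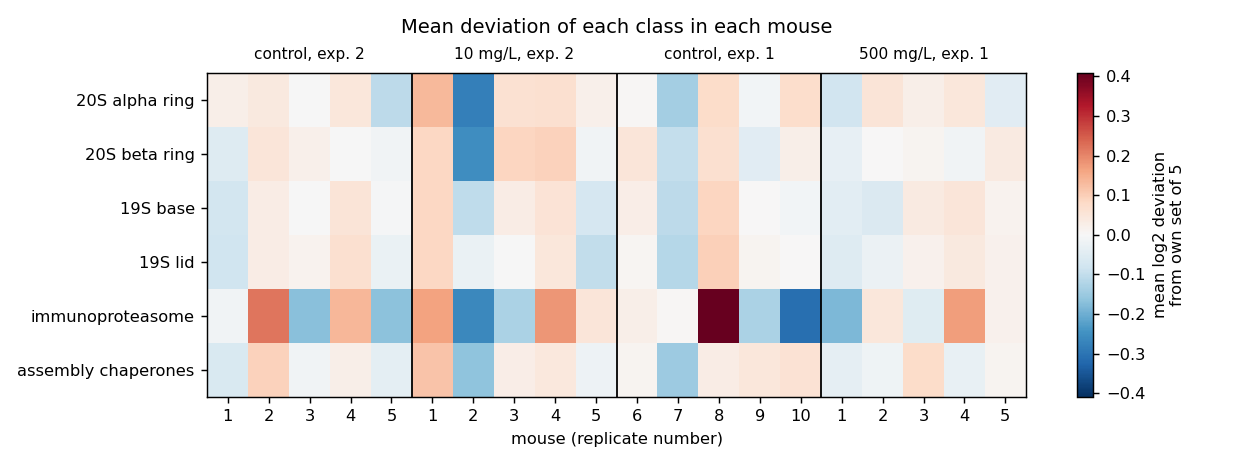
Rows are classes and columns are the 20 mice in 4 sets of 5, with colour giving the mean log2 deviation of the class from the mean of its set. Mouse 2 at 10 mg/L is low in the core rings, the immunoproteasome (-0.26) and the chaperones (-0.17), and less so in the base (-0.10). Control 7 is slightly low in core, cap (-0.11 in the base) and chaperones (-0.15). In the immunoproteasome control 10 is lowest (-0.31) and control 8 is high. The activators are not drawn.

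**Figure D5:**
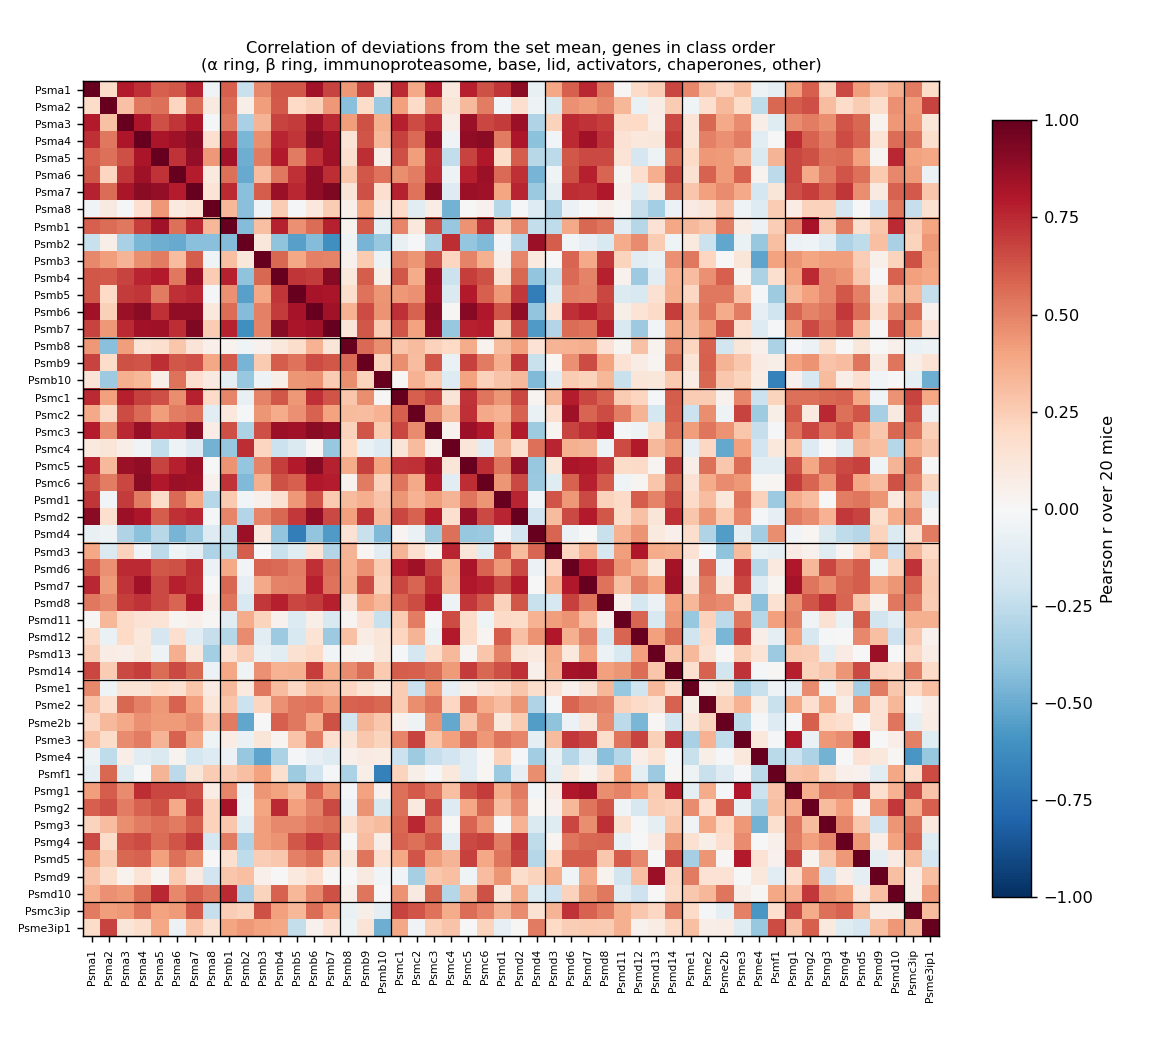
Both axes list the 50 tested genes in class order, with black lines between classes, and colour gives Pearson's r of deviations over 20 mice. The blocks of core, base and lid are mostly positive, with Psmb2 and Psmd4 standing out as negative against the core.

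Levels of 7 pairs of genes were compared across the 20 mice with two-sided permutation tests, adjusted over the 7. Here the log2 CPM were used without taking out the mean of each set. Differences between doses and experiments therefore enter these r and p-values. Psmb8 and Psmb9 gave r = 0.61 (permutation p = 0.00507, adjusted 0.0177) and rho = 0.58 (permutation p = 0.00829, adjusted 0.0507). Within experiments r was 0.72 and 0.51 for experiments 1 and 2, and 0.52 without the 2 mice farthest in Psmb8, with adjusted permutation p of 0.0851, 0.231 and 0.0963. Psmb8 and Psmb10 gave r = 0.52 (permutation p = 0.018, adjusted 0.0316) and rho = 0.44 (permutation p = 0.0538, adjusted 0.0941). The relation did not pass without the 2 farthest mice, where r was 0.29 (adjusted permutation p = 0.339). Within experiments 1 and 2 r was 0.54 and 0.61.

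Psmb9 and Tap1, on either side of the stretch printed above, gave r = 0.32 (permutation p = 0.175, adjusted 0.245) and rho = 0.36 (permutation p = 0.117, adjusted 0.164). In experiment 1 r was 0.77 (adjusted permutation p = 0.0808) and in experiment 2 it was -0.23, where the second mouse at 10 mg/L had the lowest Psmb9. Without that mouse, a step chosen after seeing the data, r was 0.72 (permutation p = 0.00063, adjusted 0.00441) and rho 0.55 (adjusted 0.0552). Without the 2 mice farthest in Psmb9 r was 0.56 (adjusted permutation p = 0.0963).

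Psmb9 and the standard subunit it replaces, Psmb6, gave r = 0.64 (permutation p = 0.00256, adjusted 0.0177) and rho = 0.51 (permutation p = 0.0238, adjusted 0.0556), with 0.63 and 0.71 within experiments 1 and 2. Without the 2 farthest mice r was 0.30 and without the second mouse at 10 mg/L 0.46 (adjusted permutation p = 0.339 and 0.0855). The relation passed in neither case. Psma3 of the core and Psmc2 of the cap gave r = 0.56 (permutation p = 0.0109, adjusted 0.0255) and rho = 0.54 (permutation p = 0.0145, adjusted 0.0507), with 0.51 and 0.68 within experiments 1 and 2 (adjusted permutation p = 0.188 and 0.0959). Without the 2 farthest mice r was 0.47 (adjusted permutation p = 0.118) and without the second mouse at 10 mg/L 0.44 (adjusted permutation p = 0.0864), so the relation did not pass without them. Psmb8 with the leukocyte gene Ptprc gave r = 0.23 and rho = 0.053 (permutation p = 0.356 and 0.827, adjusted 0.415 and 0.827). Within experiments 1 and 2 its r was 0.055 and 0.35. Psmb5 and Psmd14 gave r = 0.034 and rho = -0.071 (permutation p = 0.89 and 0.766, adjusted 0.89 and 0.827), and -0.19 and 0.33 within experiments 1 and 2.

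No gene that works with the proteasome was called with dose either. Of 13 tested partners without a Psm symbol, 0 were called by edgeR at either dose against own controls, with medians of -0.035 at 10 and 0.012 at 500 mg/L. Pomp, the chaperone that matures the core, read -0.10 ± 0.07 at 500 mg/L, and Sem1, a small lid subunit, read 0.27 ± 0.08 between the control sets (edgeR adjusted p = 0.203). Of 9 regulators of proteasome genes 0 were called, and 7 were lower in value at each dose (medians -0.093 at 10 and -0.050 at 500 mg/L). Nfe2l2, which encodes Nrf2 and answers to oxidants, read -0.11 ± 0.06 and -0.09 ± 0.06, and Nfe2l3, at a mean of 0.528 CPM, read -1.12 ± 0.37 at 10 mg/L (edgeR adjusted p = 0.644). Of 14 genes of ubiquitin supply and delivery 0 were called. Nploc4, a partner of the unfoldase Vcp, read -0.25 ± 0.07 at 10 mg/L (edgeR adjusted p = 0.565), and Ubqln1, a shuttle of tagged proteins, -0.15 ± 0.06 (edgeR adjusted p = 0.751). All values of these partner genes at 10 mg/L include the second mouse, and its part in them is not given.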

How the data were processed

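Poly(A) RNA of antral follicles from 20 CD-1 mice was sequenced. The authors' deposited table holds estimated counts per gene, made with Salmon 1.2.0 on GRCm39 per the submitters' processing notes. No annotation or transcript-to-gene step is named in the sources used here. Counts were rounded, which moved a library total by a median of 79.96. The table's headers give each mouse's experiment. A second deposited table holds, per the file headers, the authors' log2 expression, p-values, a score over groups and signed fold changes, and was used for its calls only. No library copied another of its group (chi-square per gene 21.8 to 150.1 over 65 pairs). Estimated counts can split reads between near-identical genes.

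Genes passing edgeR's expression filter (17810) were fitted in R 4.3.3 with edgeR 4.0.16, TMM scaling and robust quasi-likelihood, on all 20 mice, with 1 mean per dose or 1 per dose and experiment (for own controls). Tests were two-sided, adjusted over all tested genes. SE comes from the F statistic. CPM use TMM-scaled library sizes, and correlations used log2 CPM with a prior count of 2 and 100000 permutations. The fit was tested on simulated data with changes larger than most member changes here and no difference between experiments. That test does not show whether changes as small as those of the members would be found. Alternatives were RLE and upper-quartile scaling, 3 filters, DESeq2 1.42.0, limma 3.58.1 (trend and voom), only the groups compared, a replicate block and each mouse left out; correlations without the second mouse at 10 mg/L were added after seeing the data. Precision was limited by the spread between mice, at the library totals given above.

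Members and lists were chosen with earlier results of these data known. Values by mouse are given for members called in any comparison, for the member of each class with the smallest p and with the highest CPM in the comparisons of each dose with all controls and of the control sets, and for the catalytic subunits and PA28; list genes, named if called or with the smallest p, are given by log2 change only. Psmb2 and Psma8 were added after their values were seen. Promoters came from RefSeq on GRCm38.p6 and lengths from GENCODE vM21, whose build differs from that of the counts.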

Additional observations from a re-analysis of the deposited data

Results flagged for a closer look

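Of 153 groups of values (51 genes in the 10 controls and in each dose group of 5 mice), 11 held a mouse far from the others by Dixon's criterion at 95% on log2 CPM; chance alone flags about 1 in 20. The second mouse at 10 mg/L gave 5 of them. It was lowest for Psma5 at 75.3 CPM (others 90.8 to 96.9), Psmb4 at 107 (others 142 to 153), Psmb7 at 87.0 (others 139 to 154) and the base chaperone Psmd10 at 19.6 (others 23.2 to 24.8). It was highest for the ubiquitin receptor Psmd4 at 143 CPM (others 118 to 125).

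At 500 mg/L, mouse 3 was lowest for Psme2 at 58.4 CPM (others 64.1 to 65.8) and for its copy Psme2b at 0.717 (others 1.45 to 1.67), and mouse 5 was highest for the ATPase Psmc3 at 177 (others 163 to 167). Among the controls, replicate 5 was lowest for the meiotic subunit Psma8 at 2.84 CPM (others 4.33 to 6.52), replicate 7 lowest for Psmd4 at 109 (others 117 to 124) and replicate 4 highest for Psme3 at 169 (others 143 to 155).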

How the results depend on the processing

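Counts of members called stayed at 0 under each alternative run for the comparisons of either dose with all or own controls, for both doses fitted together and for the difference between the dose effects; DESeq2 gave an adjusted p to 48 of 50 members at 500 mg/L against all controls and to 46 with both doses together. Between the doses DESeq2 called 1 (Psmc6) where edgeR called 0. Between the control sets edgeR called 1 (Psmb3), DESeq2 4, the fit without a filter on low counts 0 and the fit of the groups compared alone 0; leaving out 1 mouse gave 0 to 1. Psmb3 between the control sets and Psmc6 between the doses kept their sign in each alternative run. The replicate numbers do not pair the mice: deviations of same-numbered mice correlated from -0.17 to 0.23. With the replicate number as a block 0 members were called in each of the 4 comparisons where it could be fitted. The controls of the experiment at 500 mg/L shared their numbers with no other mouse, so they added nothing to these contrasts. The block fit of 500 mg/L with all controls therefore rested on controls of the other experiment. Dose and experiment cannot be told apart in that fit, so it does not check the comparison of 500 mg/L with its own controls. The spread between mice, with a median SE of 0.064 for core and cap genes against own controls, limits what can be seen.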
